A study of Danio rerio with 2 samples.

Results

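The loci described here are the transcribed stretches of the zebrafish genome that carry no gene name in the deposited expression table. They were taken as the table's rows with a dash in the gene column, a valid status and a mean of at least 1 FPKM over both libraries, FPKM being fragments mapped to a locus, scaled for transcript length and for the size of the library. This gave 2830 loci of the 34728 in the table, or 13.7% of the 20638 loci, named or not, that reached the same level. The libraries came from whole embryos at 32 hours post fertilisation, raised at 28 °C. One library was made from supt16h-/- mutants and the other from their wild-type siblings, and the number of embryos in each is not stated in the labels. The product of supt16h is part of the histone chaperone FACT, and the series was made to map the mutation from RNA variants by linkage. The wild-type label names no genotype beyond being a sibling, and the labels give no strain background. With 1 library per group there was no test between genotypes, and every difference below describes a pair of libraries. A locus is said to be called where the authors' deposited table, which compares these libraries, marks it as different at a q value up to 0.05.

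Programs that assemble RNA reads on a genome place a locus wherever reads pile up, also outside annotated genes. Loci found in this way are known to include long noncoding RNAs, pieces of untranslated regions and exons that an annotation lacks, short RNA genes and fragments of precursor transcripts. The table gives no strand, exon structure, sequence or coding potential for a locus, so these kinds cannot be told apart here. Each locus is named below by its position on the Zv9 build. Positions count from 1, since 154 exon starts in the deposited variant table equalled a locus start plus 1 and 0 equalled it as printed.

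Almost no unnamed locus was lost to the limit on level. Of 2834 unnamed rows, 4 lay below a mean of 1 FPKM. The loci just inside the limit were on chromosome 15 from 28034831 to 28116724 (0 and 2.5 FPKM in wild type and mutant) and on chromosome 7 from 17114205 to 17226335 (0.888 and 1.62 FPKM), both with a mean of 1.25 FPKM and both at coordinates shared with a named locus. Those just outside had means of 0.861 and 0.278 FPKM. The mean level that chose the members ran from 4.07 FPKM at the 10th percentile through a median of 7.78 to 27.0 FPKM at the 90th, a narrower range than the 1.6, 7.26 and 50.4 FPKM of the 17808 named loci. Of the unnamed loci, 150 had a mean of at least 50 FPKM. All 2830 together held 5.17% of the summed FPKM in the wild-type library and 5.61% in the mutant library, and 4.69% there without the locus of highest level.

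Unnamed loci were short. Their median span was 715 bases, with quartiles of 430 and 1518.5, against a median span of 18361.5 bases for named loci. The 83 that shared coordinates with a named locus are listed with the span of the whole shared stretch, so their own position is not resolved. No other unnamed locus overlapped a named one. Of the 2830 loci, 2737 lay on the numbered chromosomes and 93 on unplaced sequences, and 40 of the 2830 had no named locus on the same sequence.

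Most unnamed loci lay close to a named locus, and so did most named loci. The median distance between nearest edges was 3463 bases over the 2707 loci that stood apart from a named locus on the same sequence, with quartiles of 2164.5 and 6274.5. In all, 85.1% of the 2790 loci with a named locus on their sequence lay within 10 kb of it or shared its coordinates, and 317 lay apart by at most 1000 bases. Of the 17808 named loci, 3681 lay at a distance of 0 from another named locus. A further 11424 lay apart from one by at most 10 kb, 2588 of them by at most 1000 bases. Such closeness is thus not particular to unnamed loci. The loci that stood apart had 1890 different nearest named loci, so several often shared one. Neighbouring unnamed loci are therefore not independent observations. Among 905 adjacent pairs with no named locus between them and at most 10 kb apart, the log2 differences of the pair correlated with r = 0.49 and rho = 0.53, across loci of the same pair of libraries.

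Over all unnamed loci the libraries differed in both directions. The median level was 7.99 FPKM in the wild-type library and 7.37 FPKM in the mutant library. Differences were computed on the log2 scale after adding 1 FPKM to each value, mutant minus wild type, and their median was 0.05 with quartiles of -0.62 and 0.70. The median difference of named loci was -0.0041, with quartiles of -0.40 and 0.36. Among the unnamed loci with a mean of at least 5 FPKM the median lay below 0, at -0.07. On this scale 478 unnamed loci stood at least 2-fold higher in mutants (16.9%), where 6.75% of all measured loci and 5.14% of named loci were. At least 2-fold lower were 447 unnamed loci (15.8%), where 8.36% of all measured loci and 7.18% of named loci were. In either direction the share was 32.7% of unnamed loci, against 15.1% of all measured loci and 12.3% of named loci. These sets were not chosen alike, since an unnamed locus can be placed by reads that pile up in 1 library alone. Of 2834 unnamed rows only 4 lay below the limit on level, while 17808 of 31894 named loci reached it. The part of this in the larger shares of unnamed loci was not tested. The order of higher and lower counts turned with loci under 300 bases left out (369 and 396) and with loci listed at 0 in 1 library left out (421 and 438). In whole embryos, fewer cells of a type and less RNA per cell cannot be told apart behind such differences. The scatter of levels shows a broad cloud at low levels on both sides of equality.

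**Figure D1:**
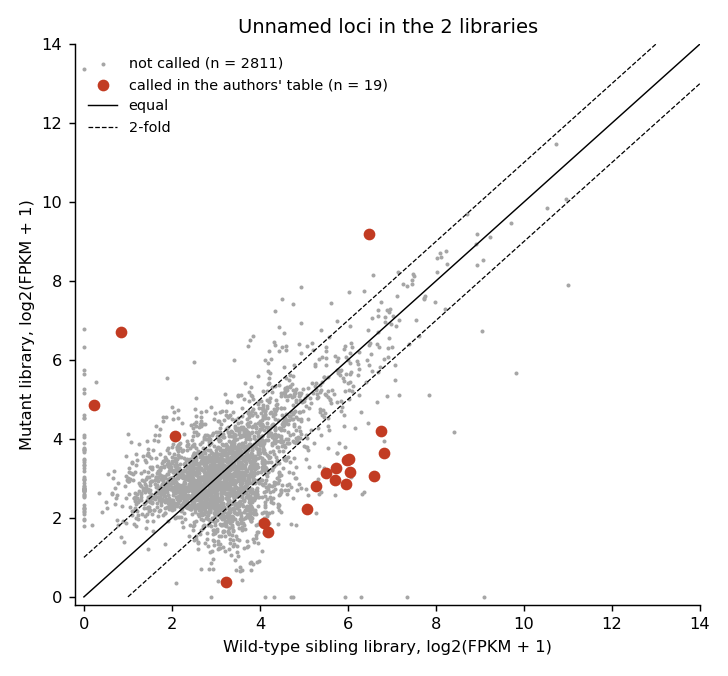
Level of each of the 2830 unnamed loci in the wild-type library (x axis) and the mutant library (y axis), as log2(FPKM + 1); the solid line is equality, the dashed lines a 2-fold difference, and red points the 19 loci called in the authors' deposited table. Most points lie below a value of 6 on both axes, 15 of the red points lie below the lower dashed line and 4 above the upper one, and the point at the top left is listed at 0 in the wild-type library.

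The share of loci past 2-fold varied with their span. Of the 288 unnamed loci spanning under 300 bases, 160 were at least 2-fold apart (55.6%), and of the 264 named loci that short, 170 were (64.4%). Among loci from 300 to under 500 bases, 27.2% of unnamed loci passed 2-fold on the higher side and 20.3% on the lower, against 13.9% and 16.5% of the 79 named loci of that span. Among loci from 500 to under 1000 bases the unnamed shares were 11.3% and 13.7%, near those of the 248 named loci (13.3% and 13.3%). Of the 1028 unnamed loci of 1000 bases or more, 94 stood at least 2-fold higher (9.14%) and 145 lower (14.1%), while 4.44% and 6.79% of named loci that long did. Spans within this class were unlike, since 12139 of its 17217 named loci and 182 of its unnamed loci spanned 10000 bases or more. From 1000 to under 2000 bases, 5.97% of unnamed loci stood higher and 13.3% lower, against 8.4% and 7.89% of named loci. From 2000 to under 10000 bases the shares were 10.4% and 15.5% against 5.76% and 6.34%. At longer spans they were 14.3% and 13.2% against 3.76% and 6.9%. Higher loci thus outnumbered lower ones at spans under 500 bases, and lower loci outnumbered higher ones from 500 to under 10000 bases. At longer spans 26 were higher and 24 lower. Loci that share coordinates enter with the span of the whole shared stretch. These are the 83 unnamed loci that share with a named one, further unnamed loci that share with each other, and some named loci. Whether span sets these shares was not tested.

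**Figure D2:**
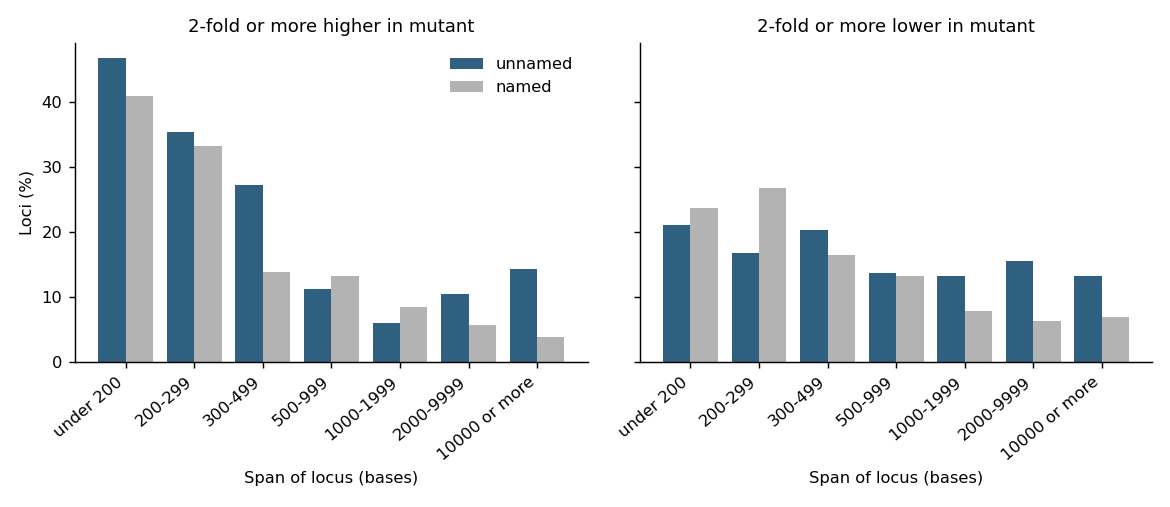
Percent of unnamed loci (blue) and named loci (grey) at least 2-fold higher (left) or lower (right) in the mutant library, by the listed span of the locus in bases. For loci that share coordinates this is the span of the whole shared stretch. Unnamed loci under 200 bases reach 46.8% higher and 21.0% lower, and those from 1000 to under 2000 bases 5.97% and 13.3%.

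An exact 0 in 1 library was more often found in the wild-type library. There 57 unnamed loci (2.01%) were listed at 0, and in the mutant library 9 (0.318%), while the named loci had 222 (1.25%) and 125 (0.702%). The loci at 0 in the wild-type library had a median of 6.75 FPKM in the mutant library and a median span of 489 bases. A locus at 0 in 1 library passed the limit on level only through the other library. All 57 and all 9 therefore count as at least 2-fold apart by the way they were chosen. The most common ratio between the low values of both libraries, found at 7.27% of 4528 loci, would make the mutant library 1.53 times as deep as the other, and the part of depth in the zeros was not tested. The authors' deposited table calls 0 of these 66 loci, where it calls 0.671% of all unnamed loci and 0.469% of all tested loci. At such shares a count of 0 among 66 loci says nothing about loci listed at 0.

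Of the 5 loci of highest mean level, 3 differed by less than 2-fold. On chromosome 10, the locus from 40425312 to 40428908 stood at 1974 FPKM in wild type and 1079 FPKM in the mutant. On chromosome 15, the locus from 5792227 to 5795444, 338 bases from wrb, stood at 1475 and 920.3 FPKM, while wrb itself was listed at 26.2 and 22.9 FPKM. A locus of 190 bases on the unplaced sequence Zv9_NA334 stood at 1697 and 2821 FPKM. On chromosome 17, the locus from 2327481 to 2330073 stood far lower in the mutant, at 2062 and 239 FPKM, a level 8.63-fold lower, and its nearest named locus 15945 bases away was below 1 FPKM in both libraries. The authors' deposited table lists that locus at a log2 change of -3.11 (implied standard error 1.1, q = 0.348) and does not call it. The locus of highest mean, on chromosome 5 from 75639131 to 75639410, was listed at 0 in wild type and reached 10616 FPKM in the mutant. That stretch of 280 bases is also not called (q = 0.12 in the authors' deposited table), and the nearest named locus, MTFP1, a mitochondrial fission protein gene 52196 bases away, stood at 35.9 and 62.1 FPKM.

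Single unnamed loci of the extreme differences were mostly short and often listed at 0. Among loci with at least 5 FPKM in 1 library, 8 of the 10 with the largest differences downward were listed at 0 in the mutant library, at 16.3 to 546 FPKM in the wild-type library, and 9 of the 10 spanned under 300 bases. None of the 10 is called in the authors' deposited table, which cannot be told from the 0.671% of all unnamed loci that are called. Of the 10 with the largest differences upward, 7 were listed at 0 in the wild-type library, 6 spanned under 300 bases and 2 are called. The 10 upward loci included 147 bases on chromosome 24 from 33403113 to 33403259 (0 and 109 FPKM), 1244 bases from the intermediate filament gene vim, which itself stood lower in the mutant (70.6 and 32.2 FPKM). The nearest named locus, at any distance, differed at least 2-fold in the same direction for 0 of the 8 upward loci that had one. It did so for 2 of the 10 downward loci. Among unnamed loci at least 2-fold apart with a separate named locus within 10 kb, the share was 6.84% of 380 higher and 25.0% of 348 lower ones. Counts this small cannot be told from those shares.

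The authors' deposited table calls 19 of the 2830 unnamed loci different (0.671%), where it calls 0.469% of all tested loci and 0.436% of named ones. It calls 15 lower in the mutant (0.53%), where 0.284% of all tested loci and 0.244% of named ones are called lower. It calls 4 higher (0.141%), where 0.185% of all and 0.192% of named ones are called higher. Adjacent unnamed loci are counted singly in these shares and are not independent. Of the 15 called lower, 4 lay in 1 stretch of chromosome 11, and others lay side by side near bcl11ab and near EIF2C1. The q values compare these libraries and not the genotypes. The called loci spanned at least 595 bases. None was listed at 0 in a library, where 2.01% of all unnamed loci were at 0 in wild type and 0.318% in the mutant. The 15 lower loci had 8.34 to 112 FPKM in the wild-type library and 0.31 to 17.5 FPKM in the mutant library. As ratios of FPKM with nothing added, they were 5.69-fold to 26.9-fold lower. The largest ratio belonged to the locus at 0.31 FPKM in the mutant library, whose log2 difference with 1 FPKM added was -2.83. The standard error implied by the authors' log2 change and test statistic had a median of 0.78 over unnamed loci, with quartiles of 0.67 and 0.96.

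A group of unnamed loci stood between the gene her15.2 and the gene abhd6a on chromosome 11. Both her15.2 and its neighbour her15.1 encode hairy and Enhancer-of-split type repressors, a family of which many members are targets of Notch signalling. The stretch from 43132206 to 43172686 held 6 unnamed loci and no named one, and all 6 stood lower in the mutant by more than 2-fold. The locus from 43160682 to 43161985 fell in the authors' deposited table, from 95.9 to 7.41 FPKM (log2 change -3.7, implied standard error 0.64, q = 1.74e-05). The locus from 43169546 to 43172686 fell there from 112 to 11.4 FPKM (q = 0.000282), and the locus from 43132206 to 43134004 from 61.5 to 6.23 FPKM (q = 0.000134). These called loci were 9.86-fold to 13.0-fold lower.

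The fourth called locus of the group, from 43143021 to 43144840, stood at 62.2 FPKM in wild type, fell 6.19-fold and is also called in the authors' deposited table (q = 0.007). The remaining loci were not called, one of 188 bases at 228 and 33.5 FPKM and one of 372 bases at 45.6 and 12.6 FPKM. Of the flanking genes, her15.2 stood at 57.0 and 15.8 FPKM, 28617 bases before the first of the 6, and abhd6a, a lipid hydrolase gene 10739 bases after the last, was listed at 0 and 0.671 FPKM. On the far side of her15.2, her15.1 stood at 67.9 and 23.6 FPKM and her2, of the same family, at 56.0 and 18.9 FPKM. The 3 her genes were 2.88-fold to 3.61-fold lower and were not called, and the division of reads between her15.1 and her15.2, which are paralogs, is uncertain.

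A further called locus on chromosome 11, from 42406440 to 42407676, fell in the authors' deposited table, from 16.0 to 2.66 FPKM (q = 0.0317). It lay 34708 bases from pax7a, a paired-box factor of neural crest, muscle and neural tube, which was not called, with 8.53 and 2.08 FPKM. A 5S_rRNA locus lay closer, at 1622 bases, and was listed at 242 and 0 FPKM. Beyond it, from 42411477 to 42499689, CR759952.1 stood at 10.3 and 2.88 FPKM. Elsewhere on the chromosome, the locus from 30208137 to 30209110 fell in the authors' deposited table, from 8.34 to 0.31 FPKM (log2 change -4.75, implied standard error 1.3, q = 0.047). It lay 2287 bases from the ARHGEF10L (1 of 2) locus, which stood at 2.79 and 0.407 FPKM.

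A pair of called loci on chromosome 6 lay 2225 and 3087 bases from bcl11ab, which encodes a zinc finger transcription factor and stood at 25.0 and 3.35 FPKM without being called. The locus from 6460560 to 6461343 fell in the authors' deposited table, from 50.8 to 6.77 FPKM (q = 0.00328), and the locus from 6461422 to 6462016 from 65.4 to 7.89 FPKM (q = 0.00242). On the same chromosome, the locus from 14538092 to 14539107 fell there from 44.3 to 7.78 FPKM (q = 0.0172). It stood in a wide interval, 310675 bases from pou3f3b, a POU-domain factor of the nervous system at 99.6 and 33.0 FPKM, and 313549 bases from TMEM182 (2 of 2) at 0.408 and 0.743 FPKM. On chromosome 16, the locus from 12696652 to 12698417 fell in the authors' deposited table, from 17.3 to 2.14 FPKM (q = 0.00243), 3794 bases from the POU-domain gene pou2f2b (7.38 and 1.84 FPKM).

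Beside EIF2C1 on chromosome 16, an Argonaute gene of small RNA silencing, 3 unnamed loci followed one another between 54634925 and 54638245. They stood at 63.8 and 10.3 FPKM, at 14.9 and 0.879 FPKM and at 32.7 and 3.66 FPKM, and the authors' deposited table calls the first (q = 0.00875) and the last (q = 0.000891). EIF2C1, which began 708 bases further on, is also called lower there (17.8 to 3.62 FPKM). On chromosome 4, the locus from 60108524 to 60109227 fell in the authors' deposited table, from 52.0 to 8.56 FPKM (q = 0.0157). It lay 231 bases from the locus of both PHF21B copies, PHD finger protein genes, which is called lower as well (26.0 to 4.09 FPKM). On chromosome 20, the locus from 4381674 to 4382292 fell there from 37.4 to 6.01 FPKM (q = 0.0309), and TIAM2 (2 of 2), a Rac exchange factor gene 1337 bases away, was not called, with 14.4 and 3.01 FPKM. The last of the 15 lay on the unplaced sequence Zv9_NA530 from 1452 to 10642, with no named locus beside it, and fell in the authors' deposited table from 106 to 17.5 FPKM (q = 0.014).

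Of the 14 called lower loci with a named locus on their sequence, 11 had a nearest named locus that was at least 2-fold lower too, for 1 of them the 5S_rRNA locus listed at 0 in the mutant library. The other 3 were those nearest to abhd6a, which was listed at 0 in the wild-type library. The 11 do not have 11 different neighbours, since bcl11ab and EIF2C1 recur among them, and pou3f3b lay 310675 bases away. Of the 348 unnamed loci at least 2-fold lower and apart from a named locus within 10 kb, 25.0% had such a neighbour. The 14 were counted at any distance and were 5.69-fold to 26.9-fold lower, so this share does not have the same limits of distance and size.

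Of the 4 unnamed loci called higher, 3 had a named locus on their sequence, and the nearest one was 2-fold higher for none of the 3. Of the 380 unnamed loci at least 2-fold higher and apart from a named locus within 10 kb, 6.84% had such a neighbour. The 3 were chosen by a call and counted at any distance, so this share has other limits, and 0 of 3 cannot be told from it. On chromosome 2, the locus from 13841008 to 13844147 rose in the authors' deposited table, from 0.802 to 103 FPKM, and its log2 change there was 7.0 (implied standard error 0.71, q listed as 0). It lay 67060 bases from zgc:66475 (22.4 and 13.7 FPKM). On its other side, 71500 bases away, several named loci shared coordinates, and the most abundant of them, si:dkey-228i19.32, stood at 6.45 and 11.5 FPKM. On chromosome 8, the locus from 1383569 to 1386514 rose in the authors' deposited table, from 88.6 to 586 FPKM (log2 change 2.73, implied standard error 0.61, q = 0.00378). Its nearest named locus, FBXL17, an F-box protein gene 15829 bases away, stood lower in the mutant (4.94 and 0.979 FPKM). On chromosome 5, the locus from 75557580 to 75563230 rose from 3.22 to 15.8 FPKM there (q = 0.0392), beside pax8, a paired-box factor of ear, kidney and thyroid, which stood at 5.67 and 6.31 FPKM. On the unplaced sequence Zv9_NA19, the locus from 7150 to 8131 rose in the authors' deposited table, from 0.17 to 28.1 FPKM (q = 0.00243, implied standard error 1.6), with no named locus beside it.

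**Figure D3:**
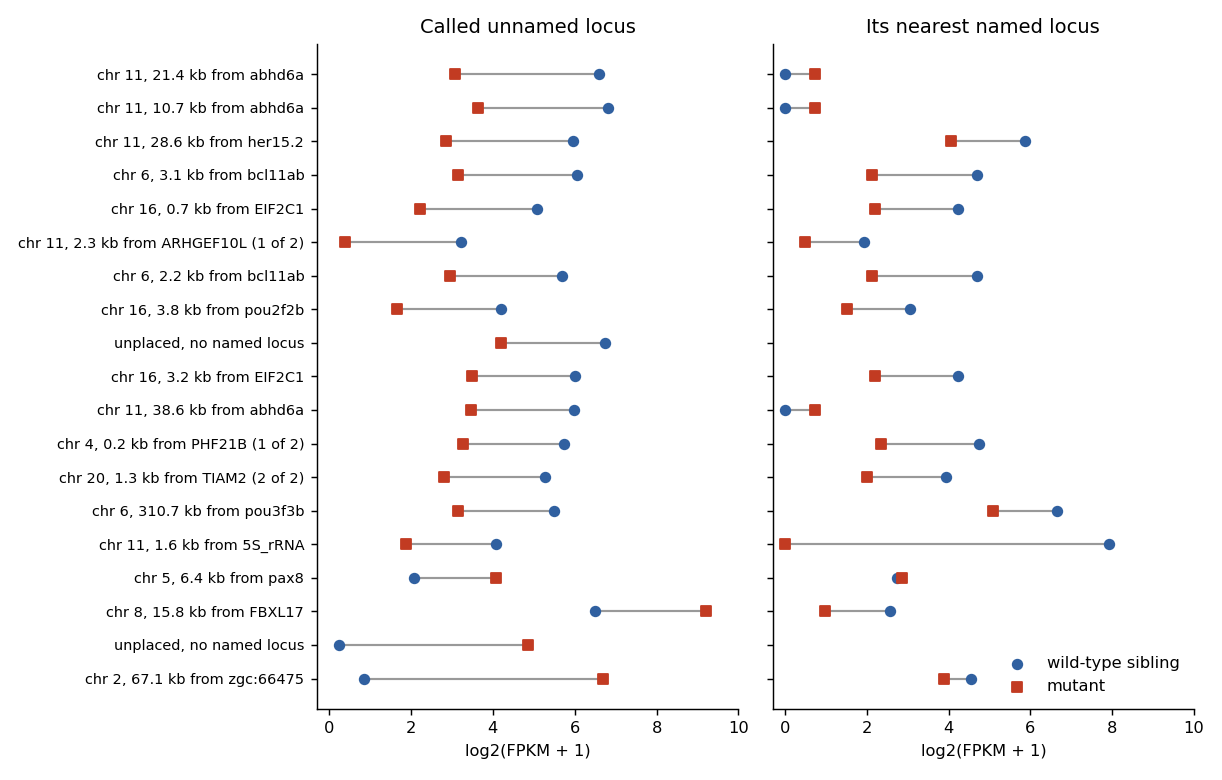
Levels in the wild-type library (blue circles) and the mutant library (red squares) of the 19 unnamed loci called in the authors' deposited table (left) and of the nearest named locus of each (right), as log2(FPKM + 1), ordered by the difference of the unnamed locus. For 11 of the 15 lower loci the neighbour is at least 2-fold lower too, the 3 rows near abhd6a show a neighbour at or near 0, and no nearest named locus of a higher locus is itself 2-fold higher. Rows that share bcl11ab or EIF2C1 repeat the same neighbour.

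Differences of unnamed loci went with those of nearby named loci, more on the lower side. Within 10 kb and apart from the named locus, the log2 differences of 2291 unnamed loci and their nearest named loci correlated with r = 0.27 and rho = 0.36. The same measure over 11424 named loci and their own nearest named locus gave r = 0.06 and rho = 0.08. Both are descriptions across loci of the same pair of libraries, and pairs that share a neighbour are not independent. By distance, rho was 0.45 at up to 1000 bases (317 loci), 0.37 from there to 5000 bases (1501 loci), 0.28 on to 10000 bases (473 loci), 0.18 on to 20000 bases (214 loci) and 0.04 on to 50000 bases (126 loci). The 76 loci farther away gave 0.28.

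Of the 348 unnamed loci at least 2-fold lower in this range, 87 had a nearest named locus at least 2-fold lower (25.0%) and 3 had one at least 2-fold higher (0.862%). Of the 1563 unnamed loci that differed by less than 2-fold, 40 had a nearest named locus at least 2-fold lower (2.56%) and 60 one at least 2-fold higher (3.84%). Of the 380 unnamed loci at least 2-fold higher, 26 had a nearest named locus at least 2-fold higher (6.84%) and 9 one at least 2-fold lower (2.37%). The nearest named locus was below a mean of 1 FPKM for 48, 205 and 52 loci of these classes, where the added 1 FPKM limits its difference.

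**Figure D4:**
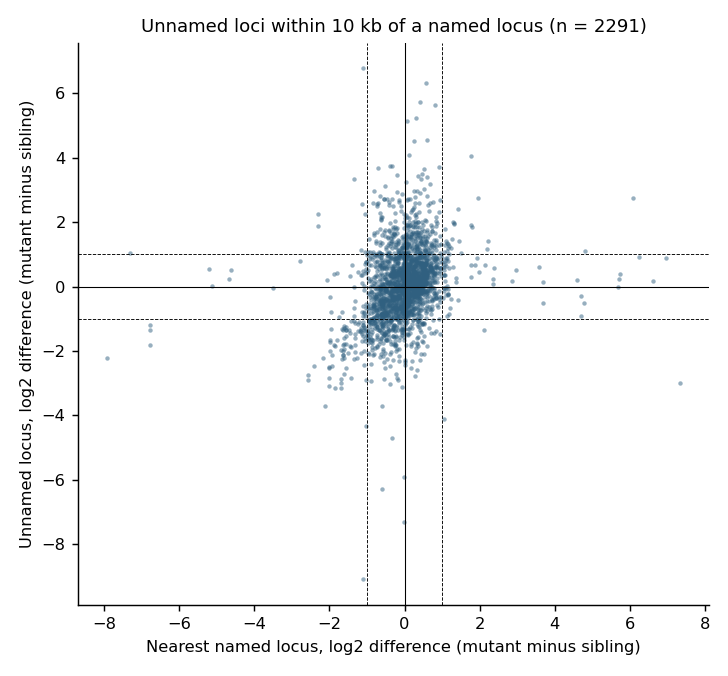
Log2 difference (mutant minus sibling, with 1 FPKM added) of the 2291 unnamed loci within 10 kb of a named locus (y axis) against that of the nearest named locus (x axis); dashed lines mark a 2-fold difference. The lower left corner, where both are at least 2-fold lower, holds 87 points and the upper right corner 26.

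Few stretches of several unnamed loci between the same named genes differed throughout. The unnamed loci formed 1824 runs without a named locus between them, 228 of them with at least 3 loci and none with more than 7. In 21 runs of at least 3, every locus differed at least 2-fold in the same direction, 15 runs lower in the mutant and 6 higher. The 15 lower runs held 54 loci, and in 7 of these runs a flanking named locus was at least 2-fold lower with 1 FPKM added. A flank was counted on either side and at any distance, and 7.18% of all measured named loci were at least 2-fold lower. Flanks of runs that did not differ throughout were not counted, so the 7 have no like share beside them. The 21 runs were picked out by their values and carry no test.

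The flanks of the lower runs include DTX4 (2 of 2) on chromosome 1, a Deltex gene of the Notch pathway. It stood at 14.4 and 3.94 FPKM, and the 3 unnamed loci that began 2128 bases beyond it stood at 14.0 to 39.2 FPKM in the wild-type library and 4.83 to 9.01 in the mutant library. Also on chromosome 1, 4 loci from 20653719 to 20660319 stood at 5.33 to 13.3 FPKM in the wild-type library and at 0 to 0.787 FPKM in the mutant library. The paired-box gene pax5, 3197 bases before them, stood at 3.99 and 0.549 FPKM, and the protein kinase gene melk, 35698 bases after them, at 14.1 and 13.2 FPKM. On chromosome 7, the calcium channel subunit gene cacnb2a stood at 3.44 and 1.06 FPKM, 76099 bases before a run of 4 loci at 6.66 to 13.5 and 1.76 to 4.12 FPKM. On chromosome 24, ek1, an Eph receptor gene, stood at 10.8 and 2.88 FPKM beside a run of 3 loci at 12.0 to 39.5 and 3.26 to 6.16 FPKM.

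The other 8 lower runs had no flank that was 2-fold lower with 1 FPKM added. On chromosome 3, 6 loci from 24749489 to 24761549 stood at 8.27 to 27.0 FPKM in the wild-type library and 2.65 to 7.03 FPKM in the mutant library. BAIAP2L2 (1 of 2), 1808 bases before them, was listed at 0.304 and 0.488 FPKM, and CR790377.1, 12723 bases after them, at 2.19 and 2.35 FPKM. On chromosome 9, 3 loci stood at 4.68 to 13.9 and 1.72 to 3.45 FPKM. Both flanks stood lower there without passing 2-fold on that scale, bmpr2b, a BMP receptor gene 3402 bases away, at 1.98 and 0.725 FPKM and FAM117B (1 of 2), 1923 bases away, at 7.45 and 3.27 FPKM.

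In 5 of the 6 higher runs every locus stood below 4 FPKM in the wild-type library. The other, on chromosome 5 from 39704794 to 39706134, held 3 loci at 0 to 11.6 FPKM there and 22.3 to 41.6 FPKM in the mutant. On chromosome 24, 4 loci from 9074753 to 9081412 were at 0 to 2.09 FPKM in wild type and at 5.09 to 11.8 FPKM in the mutant library, with the homeobox gene tgif1 at 77.4 and 46.8 FPKM 6726 bases beyond. On chromosome 25, 3 loci from 37329122 to 37343510 stood at 1.73 to 3.06 and 7.65 to 13.6 FPKM. On chromosome 5, 3 loci from 18141778 to 18145709 stood at 1.26 to 3.55 and 9.37 to 11.2 FPKM, and the zinc transporter gene SLC39A14, 29709 bases before them, was higher too (3.86 and 9.46 FPKM).

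Chromosome 5 stood apart from the other 24 chromosomes. It held 305 unnamed loci, against 52 on chromosome 4 to 187 on chromosome 7 elsewhere, or 26.6 for every 100 measured named loci against 6.08 to 23.7. Of its unnamed loci 93 passed 2-fold on the higher side (30.5%) and 31 on the lower side (10.2%), where the other chromosomes had 9.52% to 21.2% higher and 9.64% to 28.1% lower. The median log2 difference of its unnamed loci was 0.49, and on the other chromosomes it ran from -0.30 on chromosome 11 to 0.35 on chromosome 19. The 1145 named loci of chromosome 5 had a median of 0.29, against -0.12 on chromosome 11 to 0.07 on chromosome 13, with 135 of them at least 2-fold higher and 56 lower.

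Without chromosome 5, 385 of 2525 unnamed loci passed 2-fold on the higher side (15.2%) and 416 lower (16.5%), and their median was 0.0087. The larger count of higher than of lower unnamed loci was thus not found without it. Chromosome 11, with the lowest median, had 34 of 121 unnamed loci at least 2-fold lower (28.1%) and 12.0% of its named loci. The cause of either pattern was not tested.

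**Figure D5:**
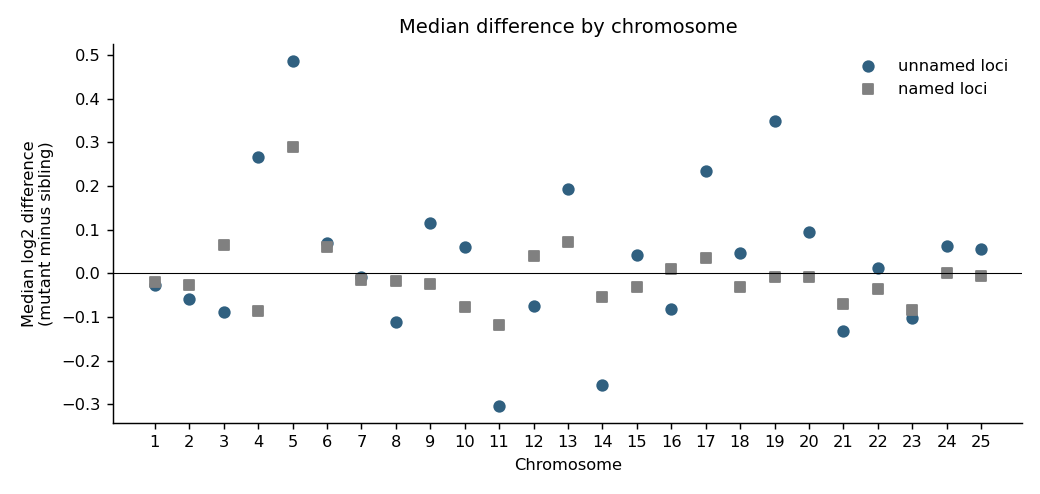
Median log2 difference (mutant minus sibling, with 1 FPKM added) of unnamed loci (blue circles) and named loci (grey squares) on each of the chromosomes. Chromosome 5 is highest in both, at 0.49 and 0.29, and chromosome 11 lowest in both, at -0.30 and -0.12.

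Around supt16h itself, on chromosome 7 from 1689457 to 1757060, the 3 nearest unnamed loci differed by less than the gene did. The gene stood at 44.4 and 2.98 FPKM, 14.9-fold lower, and is called lower in the authors' deposited table. The unnamed locus from 1684488 to 1684926, 4530 bases before it, stood at 13.1 and 12.6 FPKM. The next ones lay much farther from the gene, with named loci between, and neither was called. The locus from 1602396 to 1606216 stood 3.06-fold lower at 9.44 and 3.09 FPKM, 228 bases from nop10 (96.0 and 94.0 FPKM). The locus from 1537183 to 1537862 stood at 7.3 and 3.75 FPKM. Over all of chromosome 7, 33 of 187 unnamed loci stood at least 2-fold higher (17.6%) and 30 lower (16.0%). These shares are near the 16.9% and 15.8% of all unnamed loci.

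FPKM summed to 1029581 in the wild-type library and 1095954 in the mutant library. Of 21 marker genes of tissues that a whole embryo holds, 19 were found by symbol and all of these had at least 1 FPKM in both libraries. Of the 19, 15 differed by less than 2-fold with 1 FPKM added. The liver and yolk marker apoa2 stood at 54.5 and 586 FPKM, the heart marker cmlc1 at 6.75 and 41.1 FPKM and the muscle marker ckma at 1704 and 3836 FPKM, all at least 2-fold higher in the mutant. Other markers of heart and muscle were higher by less than 2-fold. These were myl7 of heart (36.8 and 69.6 FPKM) and actc1b (3441 and 5698 FPKM) and mylpfa (4862 and 5953 FPKM) of muscle. The neuronal marker elavl3 was at least 2-fold lower, at 205 and 83.4 FPKM, while elavl4, also neuronal, stood at 25.3 and 22.1 FPKM. The part of such marker differences in those of the unnamed loci was not tested. The variant table lists 7514 different variants. Of these, 96 lay within the coordinates that 39 unnamed loci share with named genes, where the position of the unnamed locus itself is not resolved. In the 2747 unnamed loci that stand apart lay 0, and whether the variant table covers sites outside annotated genes was not tested.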

How the data were processed

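Poly(A) RNA from 1 µg of total RNA per group was sequenced as stranded paired reads of 50 nucleotides, per the labels' protocols. Per the submitters' processing notes, the Zv9 build was used with Cuffdiff, Cufflinks 2.2.1, TopHat2 2.1.1 and CASAVA 1.8, whose roles and options are not given there. The authors deposited 1 FPKM value per locus and library, taken here unchanged. The log2 changes, p-values and q-values in the deposited table are the authors' own. Among loci with status OK and a finite statistic other than 0, the deposited p-value was compared with the normal tail of that statistic. It equalled that tail within 0.001 at 100% of these loci. The implied standard error is the authors' log2 change divided by the deposited statistic, without its sign. Variant coverage (a count of reads, deposited with SnpEff 3.1k annotation per the file headers) served only to place sites. Depth was not stated. The ratio of depths was read from values below 1 FPKM at 4528 loci, 7.27% of which fell within 0.02 (log2) of the most common ratio.

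Samples were grouped by title. Differences used 1 added FPKM, which understates changes of low loci, and 2-fold counts replaced tests. Fold values printed for single loci and genes are ratios of FPKM with nothing added. The nearest named locus was the one with the smallest gap between edges, and the one of highest mean among named loci at the same coordinates. Loci named in the text were the 5 of highest mean, all called, the 10 largest differences each way with at least 5 FPKM in 1 library, those at the limit on level and the 3 nearest supt16h. Runs, and the genes beside them, were chosen after their values were seen. The members and lists were chosen with earlier results of these data known. Python 3.11.15, pandas 2.3.3 and numpy 2.4.6 were used. The distance step was tested on simulated positions. The counting step was tested on changes planted without noise at loci of at least 5 FPKM, which checks its arithmetic only.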

Additional observations from a re-analysis of the deposited data

How the results depend on the processing

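With 1 library per group, no library could be left out. No paired analysis was possible because each group has 1 library. The counts of 478 higher and 447 lower unnamed loci became 213 and 228 with 5 FPKM added. Those higher became 312 with a mean of at least 5 FPKM, and 94 higher and 145 lower were counted without loci under 1000 bases, a limit chosen after seeing the data. The share of higher among all 2-fold loci went from 51.7% to 43.9% with a mean of at least 5 FPKM and to 39.3% without loci under 1000 bases. The median of unnamed loci became -0.0658 with a mean of at least 5 FPKM, -0.0761 without loci under 1000 bases and 0.0087 without chromosome 5, also chosen after seeing the data. The median of named loci became 0.0258 with no minimum, -0.0193 with the mutant values scaled by the median log2 ratio of 0.0182, and -0.0198 without chromosome 5. The share of unnamed loci near a named one became 68.1% at 5 kb, 92.8% at 20 kb and 78.6% with named loci of at least 1 FPKM only. The correlation with the nearest named locus became 0.219 with 0.1 FPKM added and ran from 0.256 to 0.284 otherwise. Of 46 loci named by rule, 40 differed at least 2-fold, and 38 of these still did with 5 FPKM added. Most of the 46 were chosen for a large difference or a call, so these counts were largely set by the choice. They do not describe unnamed loci in general. Short spans, an unknown depth and missing replicates limit what single loci can show.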

Other observations

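The shift of chromosome 5 was spread over its length. In each of its 8 windows of 10 Mb the median log2 difference lay above 0, from 0.145 (39 unnamed loci, between 60 and 70 Mb) to 0.889 (27 unnamed loci, between 20 and 30 Mb). The medians of its named loci ran from 0.178 to 0.489 in the same windows. Among the 145 windows of the genome with at least 20 named loci, all 8 of chromosome 5 were among the 10 highest medians, and among the 57 with at least 20 unnamed loci, 5 of its 7 were.

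The locus numbers of the table divide the unnamed loci further. On each chromosome the numbers run through the positions in 3 ascending series. The first holds 15227 named and 316 unnamed loci, the second 15431 and 291, and the third 1 named and 2134 unnamed loci. Unnamed loci of the third series had a median span of 582 bases, against 4069 and 3746 in the others. Their shares at least 2-fold higher (17.2%) and lower (16.7%) stood beside 17.5% and 15.0% in the first series and 16.3% and 10.7% in the second. All 9 loci on chromosomes that were listed at 0 in the mutant library belonged to the third series. That series held 2134 of the 2737 unnamed loci on chromosomes. Loci listed at 0 in the wild-type library fell in all 3 series (10, 6 and 40).

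The retinoblastoma family gene rbl1 on chromosome 6 was the nearest named locus of 12 unnamed loci, more than any other named locus had. The gene stood at 21.9 and 12.7 FPKM, a difference of less than 2-fold. Of the 12 loci, 4 were at least 2-fold lower and 0 higher, where 15.8% and 16.9% of all unnamed loci were. Their log2 differences ran from -1.51 to 0.9, with a median of -0.79, and neighbouring loci are not independent.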
